A study of Homo sapiens with 6 samples.

Results

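Expression of 9 transcription factors that set or mark the basal and luminal lineages of the breast was followed across 6 conditions of HMLE cells: TP63, SOX9, SOX15, TFAP2A, TFAP2C, GATA3, KLF4, ELF5 and HOPX. Members were found by taking every array probe assigned to one of these genes, with older gene symbols counted. Of the 9 genes, 8 had a probe, 17 probes in all, of 20047 genes and 47323 probes on the array. TP63 had no probe in the gene table used and was not analysed here. ELF5 had 2 probes and neither was above background on any array, so 7 members gave a signal, as did 13548 genes in all.

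HMLE is an immortalized human mammary epithelial cell line. Cells carrying the control vector (Vector), cells treated with the fatty acid docosahexaenoic acid (DHA, 20 µM), cells given TGF-β at 1 ng/mL per the labels (TGF-β), cells with ectopic Snail (Snail), and cells with each inducer of the epithelial-mesenchymal transition plus DHA (TGF-β+DHA, Snail+DHA) were each measured on 1 array, all on the same BeadChip. Snail was expressed from a vector, and the study's culture methods give another TGF-β concentration than the labels. The labels do not say whether the DHA and TGF-β cultures carried the control vector, or how long the treatments lasted. With 1 array per condition, a difference between 2 arrays is a value with no error, and precision is set by how few arrays there are.

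In the mammary epithelium an inner luminal layer lines the ducts and an outer basal layer rests on the basement membrane. p63 maintains basal identity, whereas GATA3, ELF5 and AP-2γ are known for their roles in luminal cells, and SOX9 is known for progenitors. Snail is a zinc-finger repressor that binds E-boxes and TGF-β signals through SMAD proteins, and both are classical inducers of the epithelial-mesenchymal transition.

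The labelled cell type was checked on its markers. In Vector cells the basal keratins KRT5 and KRT14 read 13.83 and 13.26 on the log2 scale, and between 25 and 29 of 30 basal markers were above background on every array. Of 40 luminal markers, 10 to 18 were above background, FOXA1 on none of the arrays and ESR1 on the Vector array only (6.41). CDH1, the epithelial cadherin, read 11.46 in Vector and 11.52 in TGF-β cells and was not above background with Snail. The mesenchymal filament gene VIM read 11.62 in Vector, 13.40 in TGF-β and 14.23 in Snail cells. Mesenchymal markers above background ranged from 8 to 16 of 17 and leukocyte markers from 5 to 8 of 15 between arrays. The SNAI1 probe was not above background on any array, the Snail array included, and whether it lies in the part of the transcript carried by the vector is not given. Probes above background ranged from 37.9% in Snail+DHA to 44.0% in Vector, and each DHA array had fewer than its partner without DHA. The array measures a bulk culture, so fewer cells of a type and less RNA per cell cannot be told apart.

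Snail cells differed most in TFAP2C, SOX9 and SOX15. These 3 of 7 members were at least 2-fold lower in Snail than in Vector and none was higher, where 4.43% of all genes compared were at least 2-fold lower and 4.2% at least 2-fold higher. The median difference over the 7 members was -0.74 on the log2 scale and that over all genes was 0.01. In the comparison of Snail+DHA with DHA, 5 of 7 members were at least 2-fold lower (TFAP2C, SOX15, SOX9, HOPX and KLF4), against 5.66% of all genes. In TGF-β+DHA against DHA, 2 of 7 were at least 2-fold lower (HOPX and KLF4), against 1.93% of all genes. These counts use the brightest probe of each gene. The other KLF4 probe gave -0.82 for TGF-β+DHA against DHA, under 2-fold, and a second TFAP2A probe gave -1.03 for Snail+DHA against DHA, past 2-fold. HOPX was counted only against DHA, where it read 8.17, and was -0.09 for Snail and -0.49 for TGF-β against Vector.

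TFAP2C encodes AP-2γ, a DNA-binding factor of the AP-2 family known for its role at oestrogen receptor target genes. Its brighter probe read 9.69 in Vector, 9.74 in DHA, 9.20 in TGF-β, 8.995 in TGF-β+DHA, 6.46 in Snail and 6.45 in Snail+DHA, the last not above background. Both Snail arrays lay far below the other 4, and on this probe DHA against Vector was 0.05. Snail was 9.36-fold below Vector, but its reading was close to the lowest signal above background on that array (6.41). Snail+DHA was at least 9.57-fold below DHA. The other TFAP2C probe read 8.38, 8.92, 8.10, 8.27, 5.96 and 6.81 in the same order, and was not above background in Snail. On it Snail was at least 3.93-fold below Vector, and Snail+DHA was 4.30-fold below DHA. For DHA this probe gave larger values, 0.54 against Vector and at least 1.32-fold higher in Snail+DHA than in Snail. TGF-β against Vector was smaller on both probes, at -0.49 and -0.28.

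SOX9, an HMG-box factor of progenitor cells in many epithelia, read 8.58 in Vector and 8.55 in DHA. It read 7.12 in TGF-β, 8.08 in TGF-β+DHA, 6.28 in Snail (not above background) and 6.69 in Snail+DHA. SOX9 was thus lowest on the Snail arrays, intermediate with TGF-β, and nearer to Vector with TGF-β and DHA together. Snail was at least 4.50-fold and TGF-β 2.74-fold below Vector, whereas TGF-β+DHA was 1.94-fold above TGF-β. SOX9 was the 1 of 7 members that was at least 2-fold lower in TGF-β than in Vector, where 0.844% of all genes were at least 2-fold lower and 1.13% at least 2-fold higher. With DHA on both arrays, the difference between TGF-β+DHA and DHA was -0.47.

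SOX15, a second HMG-box factor, was the highest in both TGF-β conditions. It read 10.68 in Vector, 10.79 in DHA, 10.99 in TGF-β, 11.13 in TGF-β+DHA, 9.45 in Snail and 8.56 in Snail+DHA. The 4 arrays without Snail spanned 10.68 to 11.13 and both Snail arrays lay below all of them. Snail was 2.36-fold below Vector and Snail+DHA was 4.71-fold below DHA. Within Snail cells, the DHA array was 1.85-fold lower.

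**Figure D1:**
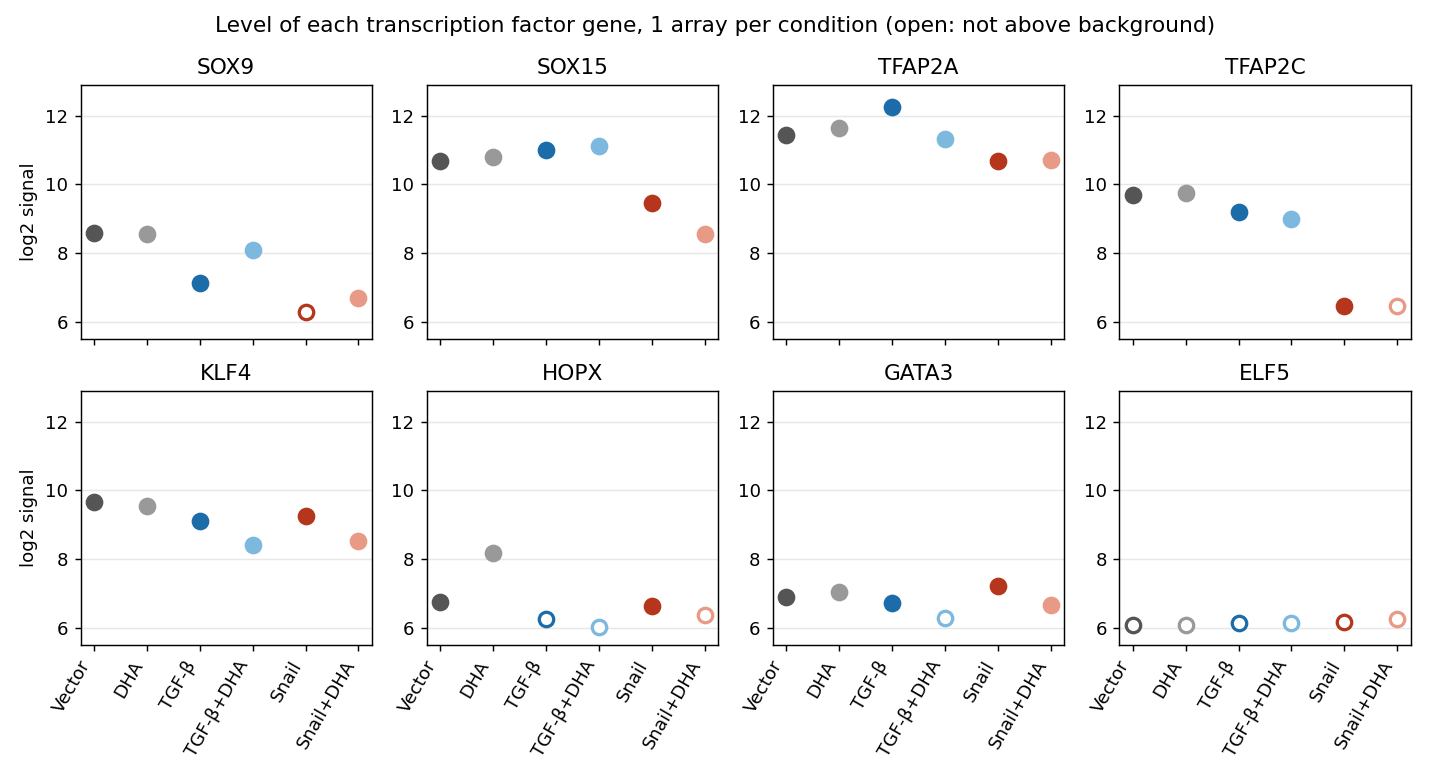
Log2 signal of the 7 members above background and of ELF5 on each of the 6 arrays, by condition, 1 point per array on the y axis, with open points for arrays on which the probe was not above background. TFAP2C, SOX9 and SOX15 sit lowest on the 2 Snail arrays (TFAP2C at 6.46 and 6.45), HOPX is highest with DHA alone (8.17), and ELF5 stays at background.

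The Snail difference was then tested over all 6 arrays with limma, in a model with terms for inducer and DHA. Its residual spread is how far the DHA difference varies between inducers, with 2 residual degrees of freedom, and is no spread between replicates. limma moved each gene's SD towards a trend over all genes, which gave 7.83 total degrees of freedom. The SE and p therefore rest in part on a spread shared by all genes. The residual SD went from 0.09 to a moderated 0.212 for TFAP2C, and from 0.69 to 0.376 for HOPX. The fit called 1043 of 13548 genes for Snail (7.7%), 453 higher (3.34%) and 590 lower (4.35%). Of 7 members 3 were lower and none higher. TFAP2C fell by 3.26 on the log2 scale (SE 0.212, limma adjusted p = 0.000267), and was lower in 2 of 2 Snail arrays. SOX9 fell by 2.08 (SE 0.254, limma adjusted p = 0.00274) and SOX15 fell by 1.74 (SE 0.296, limma adjusted p = 0.0120). The fit took the measured values also where a probe was not above background, as for SOX9 in Snail and TFAP2C in Snail+DHA. The same holds for HOPX in TGF-β, TGF-β+DHA and Snail+DHA, and for GATA3 in TGF-β+DHA.

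The remaining members did not pass the limma test for Snail after adjustment. TFAP2A gave -0.84 (SE 0.292, limma adjusted p = 0.138), KLF4 -0.71 (SE 0.247, limma adjusted p = 0.135) and HOPX -0.95 (SE 0.376, limma adjusted p = 0.188). The HOPX value averages -0.09 for Snail against Vector and -1.81 for Snail+DHA against DHA, so it rests mainly on the high DHA array. GATA3 gave -0.03, with a 95% interval from -0.48 to 0.43 (limma adjusted p = 0.960). At an unadjusted p under 0.05, 6 of 7 members and 2966 of 13548 genes passed.

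TFAP2A encodes AP-2α, the family member of TFAP2C best known for keratinocytes and neural crest. A 300-base window around 1 of its 2 annotated start sites (250 bases before to 50 after, RefSeq, GRCh38.p14) is shown with the KLF4 window and 1 of 2 HOPX windows, because their readings differed between different conditions. Matches to CAGGTG (the Snail-type E-box, read on both strands as CAGGTG or CACCTG) and to GCCNNNGGC (an AP-2-type palindrome) are in capitals, and no 2 matches overlap. CAGGTG occurs in 20.6% and GCCNNNGGC in 23.2% of all 35116 such windows, and in 2 and 5 of the 12 windows of the 5 members with an entry. A match is a description only.
TFAP2A, chr6:10419610-10419909, minus strand: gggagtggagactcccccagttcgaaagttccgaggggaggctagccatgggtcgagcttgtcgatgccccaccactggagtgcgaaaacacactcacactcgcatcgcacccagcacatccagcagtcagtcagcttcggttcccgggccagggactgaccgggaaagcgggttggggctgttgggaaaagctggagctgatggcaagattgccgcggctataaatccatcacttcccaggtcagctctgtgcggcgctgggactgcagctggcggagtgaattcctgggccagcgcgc
KLF4, chr9:107489720-107490019, minus strand: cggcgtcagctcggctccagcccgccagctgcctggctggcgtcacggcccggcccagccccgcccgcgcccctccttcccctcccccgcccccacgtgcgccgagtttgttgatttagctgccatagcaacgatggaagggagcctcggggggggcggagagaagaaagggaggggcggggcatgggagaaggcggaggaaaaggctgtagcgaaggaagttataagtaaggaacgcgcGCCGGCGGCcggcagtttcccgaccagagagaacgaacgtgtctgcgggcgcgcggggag
HOPX, chr4:56656468-56656767, minus strand: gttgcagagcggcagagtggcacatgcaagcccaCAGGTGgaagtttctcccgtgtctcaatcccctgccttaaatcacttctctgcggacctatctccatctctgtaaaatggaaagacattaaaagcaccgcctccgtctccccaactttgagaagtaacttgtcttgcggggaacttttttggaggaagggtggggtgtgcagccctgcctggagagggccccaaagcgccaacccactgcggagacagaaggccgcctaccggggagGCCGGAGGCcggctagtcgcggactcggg
Neither TFAP2A window holds either motif, and the KLF4 window holds 1 GCCNNNGGC match. The HOPX window shown holds 1 match of each kind, whereas the HOPX window not shown (chr4:56681247-56681546) holds none. SOX9, SOX15 and TFAP2C had no window in the table.

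The brightest of 5 TFAP2A probes read 11.44 in Vector, 11.65 in DHA, 12.26 in TGF-β, 11.33 in TGF-β+DHA, 10.69 in Snail and 10.72 in Snail+DHA. On this probe TFAP2A was highest with TGF-β and lowest with Snail, and TGF-β+DHA against TGF-β was -0.93. A second probe read 9.69, 9.75, 9.72, 9.40, 8.70 and 8.72 in the same order. Both probes were lower in Snail than in Vector, by -0.74 and -0.99, but they disagreed in size on TGF-β against Vector, at 0.82 and 0.03, and on TGF-β+DHA against TGF-β, at -0.93 and -0.32. The 3 other TFAP2A probes ranged over 0.15 to 0.40 across the arrays.

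**Figure D2:**
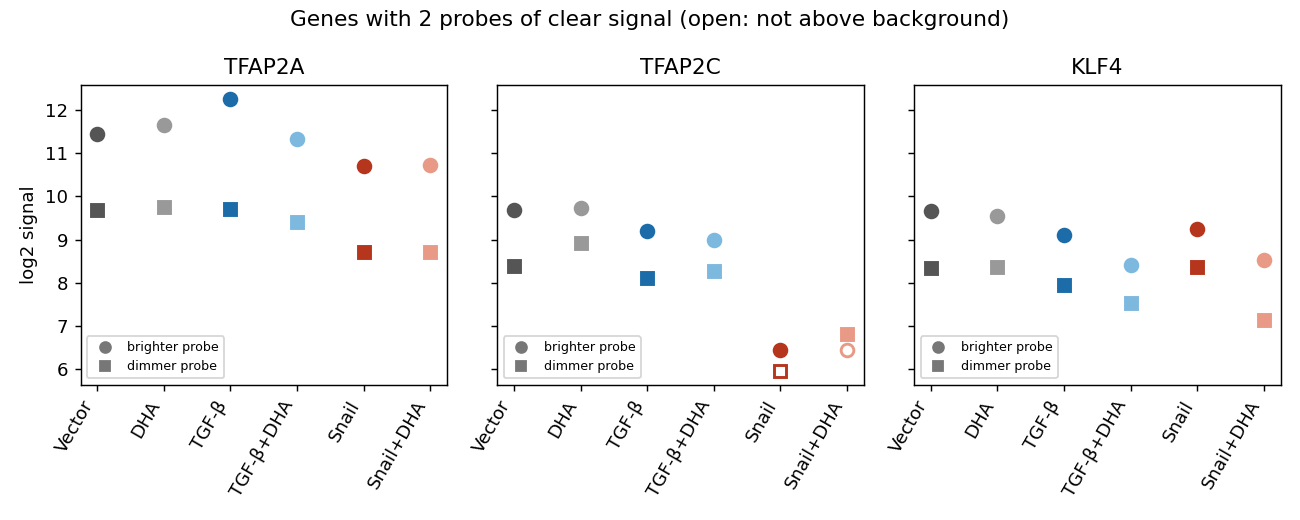
Log2 signal of the 2 brightest probes of TFAP2A, TFAP2C and KLF4 on the 6 arrays, circles for the brighter probe and squares for the other, open where not above background. TFAP2C reads lowest on both Snail arrays on both probes, whereas the TFAP2A probes differ in size for TGF-β against Vector (0.82 on the brighter and 0.03 on the other).

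KLF4 is a zinc-finger factor of barrier epithelia, also known for reprogramming to pluripotency. Its brighter probe read 9.66 in Vector, 9.55 in DHA, 9.12 in TGF-β, 8.41 in TGF-β+DHA, 9.24 in Snail and 8.54 in Snail+DHA. The lowest 2 arrays were those that combined an inducer with DHA. DHA gave -0.71 in Snail cells and -0.70 in TGF-β cells but -0.11 in Vector cells. Snail+DHA was 2.02-fold and TGF-β+DHA 2.20-fold below DHA. The other KLF4 probe read 8.35, 8.36, 7.96, 7.54, 8.36 and 7.15, with -1.21 for DHA in Snail cells and -0.42 in TGF-β cells.

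HOPX encodes a small homeodomain protein that does not bind DNA by itself. It read 6.74 in Vector, 8.17 in DHA and 6.64 in Snail, and on the TGF-β (6.25), TGF-β+DHA (6.02) and Snail+DHA (6.36) arrays it was not above background. The DHA array therefore stood above the other 5, by 1.44 over the nearest. DHA was 2.71-fold above Vector, the 1 of 7 members at least 2-fold higher in that comparison, where 0.303% of all genes were higher and 1.32% lower. HOPX was at least 3.24-fold lower in Snail+DHA and at least 3.34-fold lower in TGF-β+DHA than in DHA. The other 2 HOPX probes ranged over 0.23 and 0.42, and the second was above background on 1 array only, with its highest value in DHA (6.43).

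GATA3, a zinc-finger factor needed for luminal differentiation, had a single probe near background. It read 6.90 in Vector, 7.04 in DHA, 6.72 in TGF-β, 7.22 in Snail and 6.67 in Snail+DHA, and was not above background in TGF-β+DHA (6.29). No difference reached 2-fold, and the widest was at least 1.52-fold, TGF-β+DHA below DHA. ELF5, an ETS factor of luminal progenitors in the mouse, read from 6.08 to 6.26 on one probe and from 5.92 to 6.11 on the other.

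**Figure D3:**
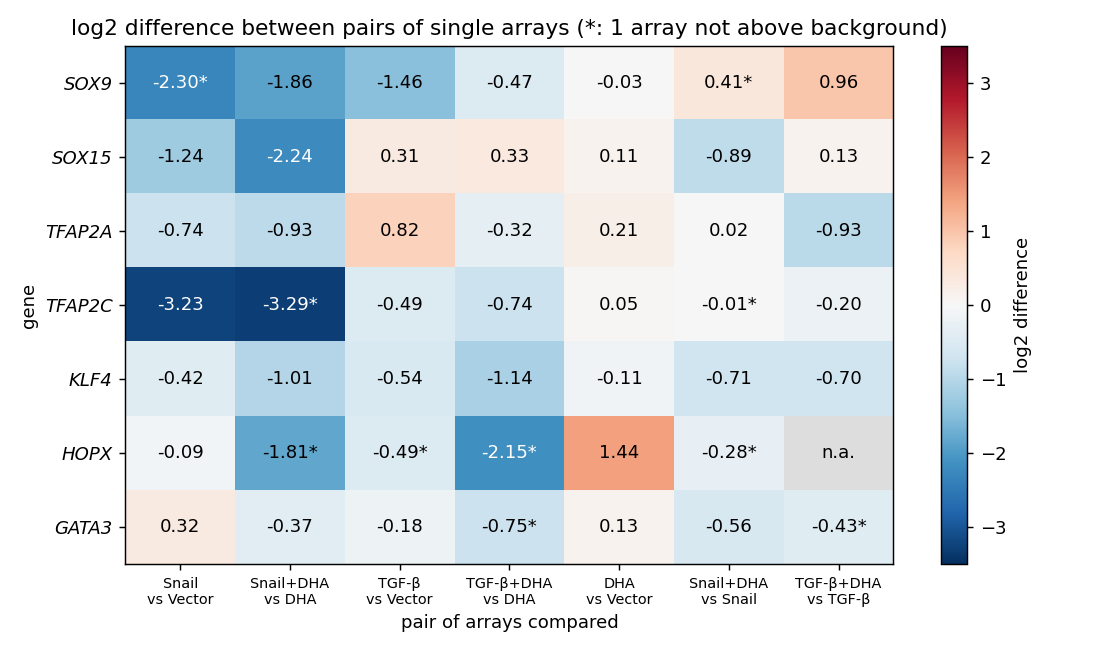
Difference in log2 signal of each of the 7 members (rows) in 7 comparisons of 2 arrays (columns), 1 array per condition. TFAP2C was -3.23 for Snail against Vector and at least 9.57-fold lower in Snail+DHA than in DHA, and HOPX is at least 2-fold higher with DHA (1.44). Cells are coloured blue for lower and red for higher, and grey where neither array was above background. A star marks measured values with 1 array not above background.

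The levels of each member were ordered over the 6 arrays. Neighbours were set against the residual SD of the fitted model, which comes from the same values and is no replicate error. It was 0.09 for TFAP2C, 0.24 for KLF4, 0.26 for GATA3, 0.35 for SOX9, 0.41 for SOX15, 0.43 for TFAP2A and 0.69 for HOPX, where the median over all genes was 0.16. For TFAP2C the steps from Vector to TGF-β (0.49), from TGF-β to TGF-β+DHA (0.20) and from TGF-β+DHA to Snail (2.54) exceeded it. Those between Snail and Snail+DHA, with both arrays at or near background, and between DHA and Vector did not. The 0.20 step was within the moderated SD of 0.212. The TFAP2C residual SD takes in a DHA difference of -0.01 between the Snail arrays at or near background, so it may be too small. On the other TFAP2C probe, TGF-β+DHA was 0.16 above TGF-β. For SOX9 the Vector and DHA arrays, and for SOX15 all neighbours among the 4 arrays without Snail, lay closer than the residual SD. For SOX15 that SD takes in the DHA difference in Snail cells (-0.89).

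DHA was compared within each background. On the brightest probe of each gene, no member differed by 2-fold between Snail+DHA and Snail (0 of 7, against 3.66% of all genes either way) or between TGF-β+DHA and TGF-β (0 of 6, against 5.62%). The other KLF4 probe was past 2-fold in the former, at -1.21. In the limma fit over all 6 arrays, none of 13548 genes was called for DHA, with 1699 at an unadjusted p under 0.05 and 1 of 7 members among them. That member was KLF4, at -0.51 (SE 0.201, limma adjusted p = 0.377), and SOX9 gave 0.45 (SE 0.208, limma adjusted p = 0.419). Fitted without the Vector and DHA arrays, limma called 840 genes for DHA, none a member, with KLF4 at -0.71 (adjusted p = 0.0645) and SOX9 at 0.68 (adjusted p = 0.0635). That fit leaves 1 residual degree of freedom. Its KLF4 value rests on differences of -0.71 and -0.70 on the brightest probe, where the other probe gave -1.21 and -0.42. Its SOX9 value averages 0.96 in TGF-β cells and 0.41 in Snail cells, where the array without DHA was not above background.

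The TGF-β fit called 8 of 13548 genes (0.059%) and 0 of 7 members, with 797 genes and 5 members at an unadjusted p under 0.05. SOX9 gave -0.96 (SE 0.254, limma adjusted p = 0.700), KLF4 -0.84 (SE 0.247, limma adjusted p = 0.756) and HOPX -1.32 (SE 0.376, limma adjusted p = 0.728). The HOPX value averages -0.49 against Vector and -2.15 with DHA on both arrays, so the high DHA array drives most of it. HOPX was not above background in TGF-β or TGF-β+DHA, so these differences are bounds (at least 1.28-fold and at least 3.34-fold lower). The study set the Snail and TGF-β arrays (destabilized lipid rafts) against the other 4 in a gene set enrichment analysis of pathways. Tested gene by gene in limma, the same grouping gave no called gene and 0 of 7 members. At an unadjusted p under 0.05, 1009 genes passed. Pathways were not tested here. SOX9 had the widest value there, at -1.27 (limma adjusted p = 0.658).

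**Figure D4:**
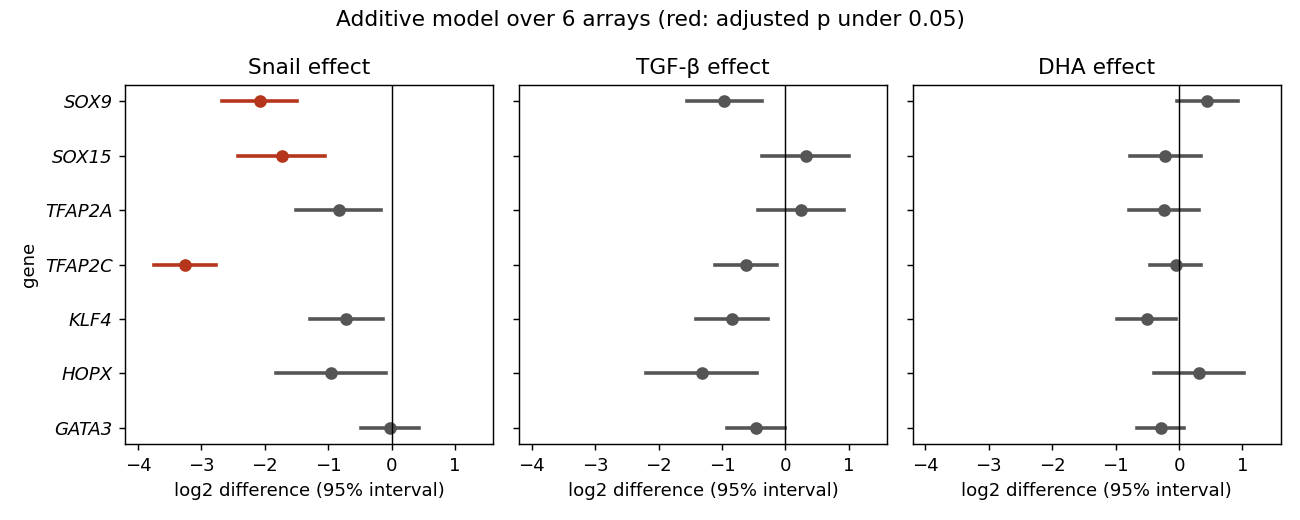
Fitted log2 difference for Snail, TGF-β and DHA of each member, with bars for the 95% interval of the limma fit over the 6 arrays, red where the adjusted p was under 0.05. Of the 7 members, TFAP2C (-3.26), SOX9 (-2.08) and SOX15 (-1.74) are red, all for Snail.

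Lists of basal and luminal markers, p63-associated genes and other lineage transcription factors were set beside the members. The basal and p63-associated lists share many genes, so their counts are not independent. Of 28 basal markers compared, 17 were at least 2-fold lower and 5 higher in Snail than in Vector (median -1.48), among them KRT14 (-3.14) and KRT16 (-3.33) lower and the peptidase MME (4.15) and the contractile genes MYLK (1.78) and ACTA2 (1.61) higher. Of 33 p63-associated genes, 22 were lower and 1 was higher (median -1.48), with FGFR3 at -4.92 and the desmosomal gene DSP at -3.91. Of 19 luminal markers 8 were lower and 1 higher (median -0.40), with CD24 at -5.66. Mesenchymal markers ran the other way, 12 of 16 higher and none lower (median 2.37). Over all genes compared, 4.43% were lower and 4.2% higher.

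In the limma fit for Snail, 18 of 29 basal markers were lower and 3 higher, and 23 of 33 p63-associated genes were lower. Most of the basal markers called lower are also p63-associated genes. Of 20 luminal markers, 7 were lower and 1 higher. Over all genes fitted, 4.35% were lower and 3.34% higher. Of 51 other lineage transcription factors, 10 were lower, among them IRX4 (-3.91), ZNF750 (-2.78) and MYC (-1.66). Higher were 2, RUNX2 (1.03) and MSX1 (0.74). MYC and MSX1 were named only after their values were seen.

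With TGF-β against Vector, 3 of 29 basal markers were at least 2-fold higher and none lower (median 0.23), ITGB4 (1.66), PKP1 (1.31) and LAMB3 (1.08). Over all genes compared, 1.13% were higher and 0.844% lower. Of 20 luminal markers 4 were lower, SLPI (-2.79) and ALDH1A3 (-2.74) among them. SLPI was the only list gene called in the TGF-β fit (-2.36, limma adjusted p = 0.0395). With DHA against Vector 6 of 20 luminal markers were lower, including MUC1 (-2.19), and 1 of 28 basal markers was higher. Of all genes in that comparison, 1.32% were lower and 0.303% higher. In Snail cells DHA gave 6 of 28 basal markers at least 2-fold lower and 0 higher (median -0.60), against 2.37% of all genes lower. In TGF-β cells it gave 7 of 29 lower and 0 higher (median -0.53), PKP1 (-2.47) among them, against 3.59%. Of p63-associated genes, 5 of 27 were lower and 0 higher in Snail cells, and 8 of 32 lower and 1 higher in TGF-β cells. Of luminal markers, 3 of 13 and 5 of 16 were lower, and 0 and 2 higher.

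**Figure D5:**
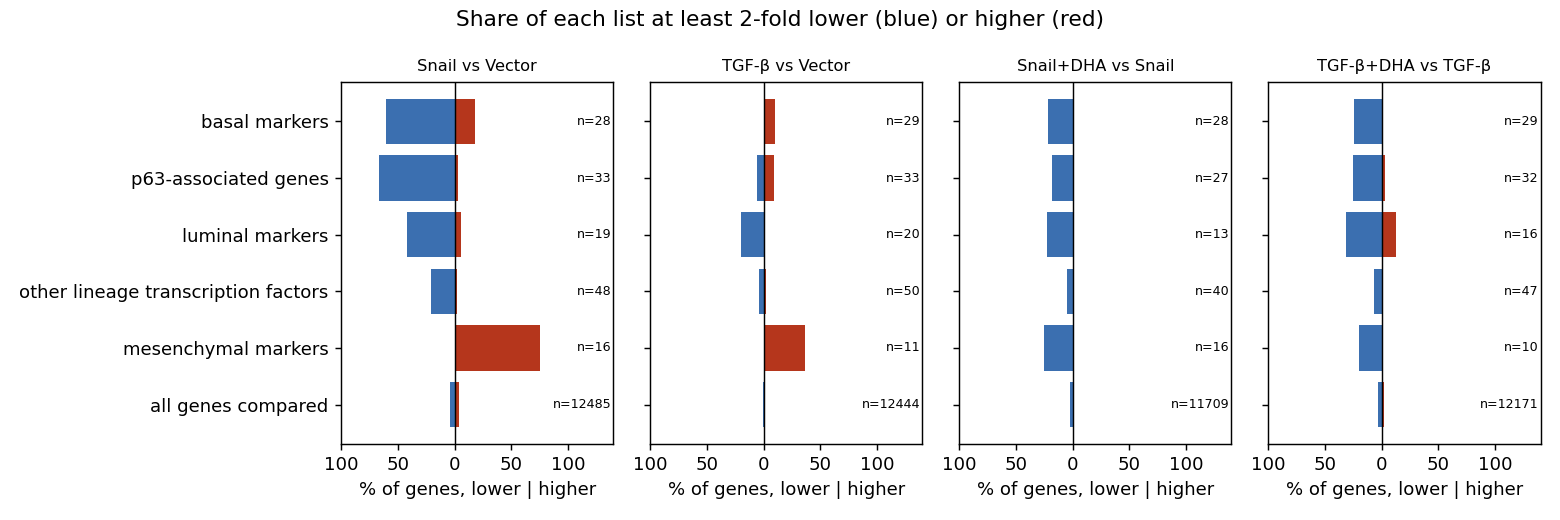
Percent of compared genes in each list that were at least 2-fold higher (right) or lower (left), by comparison, with the number compared beside each bar. In Snail against Vector, basal markers and p63-associated genes lie mainly to the left, 17 of 28 and 22 of 33, and mesenchymal markers to the right, 12 of 16.

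Genes with the most similar profiles were found by Euclidean distance between centred log2 profiles over the 6 arrays. For TFAP2C these were FXYD3 (0.503), PRSS8 (0.543) and KRT15 (0.563), against a median distance of 3.49 to all 13547 other genes. For SOX9 they were SPRR2D (0.425), CSTA (0.515) and LGALSL (0.662), for a median of 2.27, and for SOX15 MBP (0.303), RAB17 (0.319) and SFN (0.387), for a median of 2.34. HOPX had IGFL2 (0.720), LYNX1 (0.733) and ASPG (0.737), for a median of 1.83, and KLF4 had PINLYP (0.308), PSME1 (0.356) and LCN15 (0.373), for a median of 1.28. TFAP2A had PLXNA1 (0.232), VAV2 (0.280) and TULP4 (0.295), for a median of 1.41.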

How the data were processed

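Total RNA of 6 HMLE cultures was hybridised to Illumina HumanHT-12 v4 arrays, 1 per condition. The authors deposited a table of log2 values, made with the IlluminaExpressionFileCreator module of GenePattern and then quantile normalized between arrays, which gives the main values here. They also deposited a non-normalized table of intensity values, whose natural log follows the log2 table with a slope of 0.962 to 1.04, so the signal was restored as a power of 2. The base of the logarithm, the background setting and the genome build are not given in the sources used here, and fold values rest on base 2. Background was estimated from the signals below the mode of each array's restored values, since no control probes were used, and a probe was above background at p under 0.05.

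Of 47323 probes, 30113 had 1 gene symbol, 8 several and 17202 none. They named 20047 genes, 20020 of them matched to RefSeq by gene ID, and 13548 were above background on at least 1 array. A gene is represented by its probe of highest mean. Differences are those of log2 values between 2 arrays. Where 1 array was not above background, the fold is a bound against the lowest signal above background. Fits used limma 3.58.1 in R 4.3.3 with a variance trend and Benjamini-Hochberg adjustment over 13548 genes, after the script was tested on simulated data. Alternatives were background offsets of 50 and 16, a common median, linear deposited values, other detection limits, probes and samples.

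Named are all members with every probe, up to 3 genes in each direction per list and comparison among those at or past 2-fold, genes that check the labels, and the 3 nearest profiles of each member ranging over at least 1 log2 unit. The members and lists were chosen with earlier results of these data known. Some lists share genes. The basal and p63-associated lists share many, such as KRT5, KRT14, KRT15, CDH3, ITGA6, DSG3 and LAMB3.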

Additional observations from a re-analysis of the deposited data

Results flagged for a closer look

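HOPX was picked out because DHA moved it in opposite directions in 2 backgrounds. DHA against Vector was 1.44 on the log2 scale and Snail+DHA against Snail was -0.28, where the Snail+DHA array was not above background. With 1 array per condition the difference between these effects was not tested. No group held enough arrays to look for an array that stands apart.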

How the results depend on the processing

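No paired analysis was possible because the labels give no replicate numbers and each condition has 1 array. Of 280 alternative values for fitted members 0 changed a call, and of 335 for differences 0 turned the sign of a 2-fold value. The other detection limits and the probe of highest variance took the same probe for each member. They repeated the differences reported and could not turn a sign. The further probes of KLF4 and TFAP2A, given above, did change 2-fold calls. Outside the Snail fit, few or no genes were called in most settings, so member calls could hardly change there. The TFAP2C, SOX9 and SOX15 adjusted p for Snail ran from 6.99e-05 to 0.000588, 0.000959 to 0.00884 and 0.00827 to 0.0219 in limma. Taking the deposited values as linear gave 2 members at 2-fold for TGF-β against Vector (1 in the values reported), 2 for Snail+DHA against Snail (0), 3 for TGF-β+DHA against TGF-β (0) and 4 for TGF-β+DHA against DHA (2), since that scale widens every difference. A common median gave 1 for Snail+DHA against Snail (0), and offset 16 gave 1 for TGF-β+DHA against TGF-β (0) and 3 for TGF-β+DHA against DHA (2). The cause of these last 3 was not tested.

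Over all genes, a common median moved the median difference to -0.207 for DHA against Vector, -0.180 for Snail+DHA against Snail, -0.167 for TGF-β+DHA against TGF-β and 0.101 for TGF-β+DHA against DHA. It turned the sign of 5 member values no larger than 0.21 in size, SOX15, TFAP2A, TFAP2C and GATA3 for DHA against Vector and TFAP2A for Snail+DHA against Snail. Higher and lower calls at 2-fold went from 37 and 161 to 15 and 317 for DHA against Vector, from 150 and 278 to 66 and 479 for Snail+DHA against Snail, from 247 and 437 to 126 and 804 for TGF-β+DHA against TGF-β, from 524 and 553 to 422 and 742 for Snail against Vector, and from 224 and 227 to 303 and 169 for TGF-β+DHA against DHA. With offset 16 the calls rose from 246 to 417 for TGF-β against Vector, 198 to 342 for DHA, 428 to 720 for Snail+DHA against Snail, 684 to 1059 for TGF-β+DHA against TGF-β and 451 to 678 for TGF-β+DHA against DHA. On the linear scale they were 2109 (1077) for Snail against Vector, 923, 540, 1194, 1773, 1032 for those 5 and 2258 (1189) for Snail+DHA against DHA. The TGF-β fit called 8 genes, 2 with a common median, 0 without a variance trend and 22 without the Snail arrays. The DHA fit called 0, 2 with offset 16, 840 without the Vector and DHA arrays and 18 without the Snail arrays.

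Signals near background limit GATA3, HOPX and ELF5, and 1 array per condition limits every difference.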
